A study of Homo sapiens with 30 samples.

Results

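SIM1, SIM2 and OTP, 3 genes of 20037 protein-coding genes on chromosomes 1 to 22, X and Y, were examined for chromatin occupancy by RING1 and RNF2. The genes were listed by name with their peaks already known, and every peak that met the gene body or 2 kb beyond either gene end was taken. The genes were thus chosen by the fold enrichment and presence of these peaks, which are given as a description, with no test. The cells were monolayer neural progenitors kept in N2/B27/FGF medium and made from H9, a long-established line of human embryonic stem cells. All libraries used here are wild type, so they carry no edit of RING1 or RNF2. The wider series has 30 CUT&RUN libraries over 5 genotypes, and its edited genotypes and its H2AK119ub1 and IgG libraries were not analysed here. In CUT&RUN an antibody on intact chromatin brings a nuclease to the protein of interest, and the DNA cut loose there is sequenced. Each antibody has 2 wild-type libraries, and 1 RING1 and 1 RNF2 peak list share a number in their names, which makes 2 sets, A and B. No label says which set is which replicate, or whether separate cultures were used. No RNA values were analysed here, so the cell type label was not checked against marker expression.

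RING1 and RNF2 are the alternative catalytic subunits of Polycomb repressive complex 1, which attaches ubiquitin to histone H2A and helps keep developmental regulators silent. SIM1 and SIM2 encode paralogous basic helix-loop-helix PAS transcription factors related to Drosophila single-minded, which bind DNA as dimers with ARNT or ARNT2. OTP, orthopedia, encodes a homeodomain factor. SIM1 and OTP are both needed for neuroendocrine neurons of the paraventricular and supraoptic nuclei of the hypothalamus, which make oxytocin, vasopressin, corticotropin-releasing hormone and other peptides, and SIM2 overlaps in part with SIM1 there.

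The lists differ in length, which bears on every value below. They hold 12891 RING1 and 16263 RNF2 peaks in set A, and 659 RING1 and 5901 RNF2 peaks in set B. Fold enrichment is the authors' value for each peak over background and is used here to describe and rank peaks within 1 list. A rank of 4 of 12891 means that 3 peaks of that list had a higher fold enrichment. Ranks from lists of different length are set side by side and show no change between them. The sources used here give no read depth, and a missing peak does not show absence.

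SIM1 lies on chromosome 6 (100385009 to 100464921, hg38, minus strand), spans 79.9 kb and contains the antisense RNA gene SIM1-AS1. OTP lies on chromosome 5 (77628712 to 77638713, minus strand), spans 10002 bp and contains OTP-AS1. CUT&RUN peaks carry no strand, so a peak over an antisense gene cannot be assigned to either gene. The 250 bases before the annotated start of each gene are printed because peaks of all 4 lists covered them completely. Capitals mark every CpG, the dinucleotide whose density defines CpG islands, where Polycomb complexes are commonly found. The sequences are from RefSeq (GRCh38.p14), 5′ to 3′ on the minus strand, at chr6:100464922-100465171 and chr5:77638714-77638963.
SIM1: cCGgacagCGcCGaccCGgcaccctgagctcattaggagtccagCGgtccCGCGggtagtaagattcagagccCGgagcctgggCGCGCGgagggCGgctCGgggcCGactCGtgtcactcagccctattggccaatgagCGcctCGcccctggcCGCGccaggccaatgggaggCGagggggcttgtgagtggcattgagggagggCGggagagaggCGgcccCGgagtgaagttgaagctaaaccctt
OTP: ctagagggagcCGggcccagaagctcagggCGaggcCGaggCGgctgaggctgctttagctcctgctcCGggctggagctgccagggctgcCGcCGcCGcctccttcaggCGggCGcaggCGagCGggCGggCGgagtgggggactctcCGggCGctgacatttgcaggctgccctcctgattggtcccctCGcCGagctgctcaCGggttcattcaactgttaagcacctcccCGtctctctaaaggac

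The SIM1 stretch held 23 CpGs at a GC content of 68.4%, and the OTP stretch held 20 CpGs at 68.8%. Over 22199 RefSeq promoters of protein-coding genes, taken over the same 250 bases, the median was 16 CpGs and 62% GC. SIM1 had more CpGs than 67.1% of these promoters and OTP more than 58.5%, so neither stood at the far end of the range. A further annotated SIM1 start, 465 bases inside the gene, had 25 CpGs before it and was also covered in all 4 lists. The promoter table matched 2 of the 3 genes, and SIM2 is named only. The E-box CACGTG and the shorter ACGTG, the core bound by SIM and ARNT dimers and part of that E-box, were searched on both strands. Neither motif occurred in either stretch. Of all promoters, 7.37% and 20.2% held them, so most promoters lacked them too.

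All 3 genes had a peak of each protein in each set. Among all protein-coding genes, 50.5% had a RING1 peak in set A by the same measure and 60.7% an RNF2 peak, against 1.58% for RING1 and 25.2% for RNF2 in set B. A peak in all 4 lists was present at 304 genes, 1.52% of the total. The genes were chosen for these peaks, so the shares are given as background only. No gene-level test was made, and with 2 lists per antibody no error across replicates was computed.

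**Figure D1:**
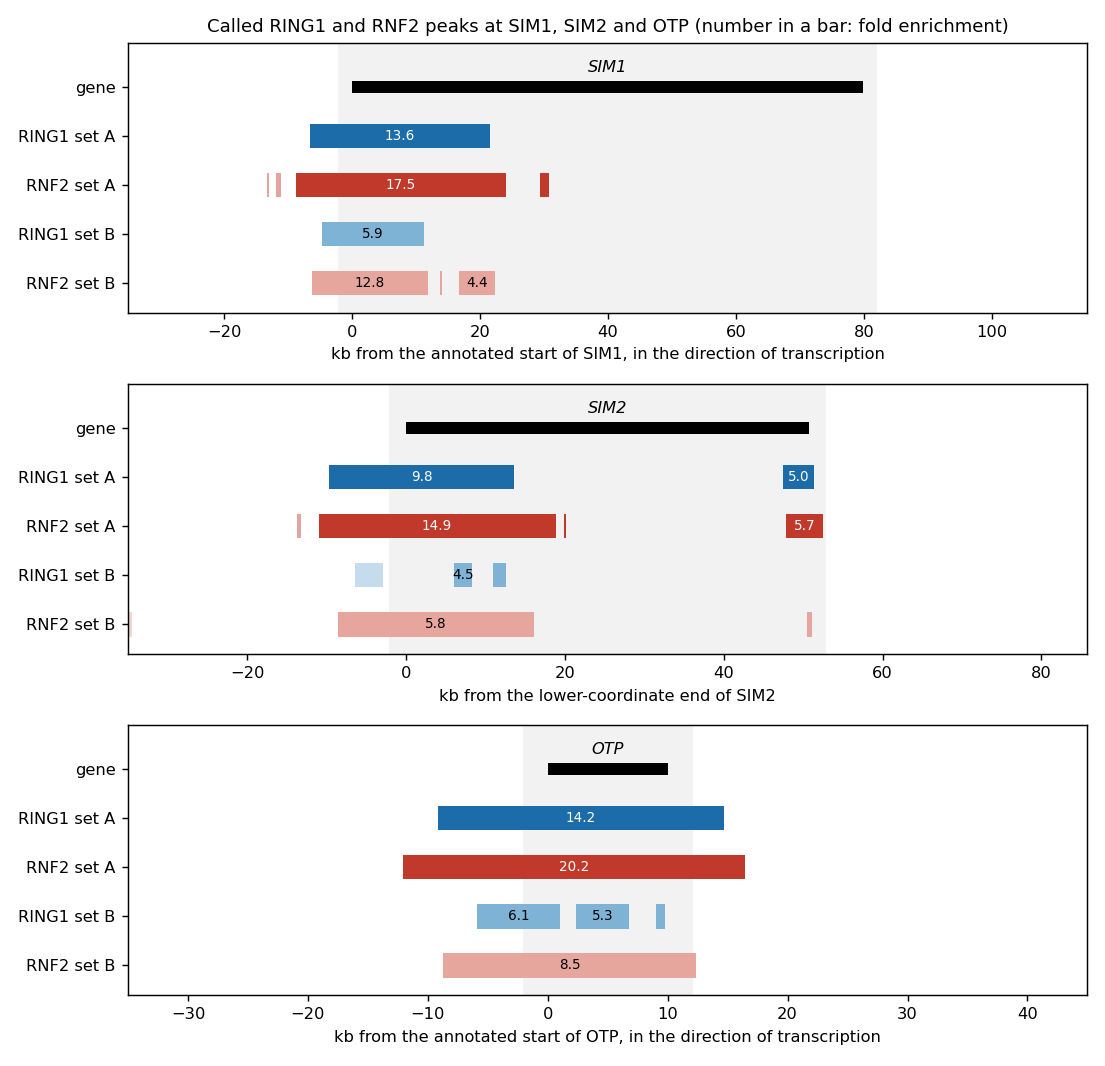
Each bar is a called peak, placed by distance in kb from the annotated start of SIM1 and OTP in the direction of transcription, and from the lower-coordinate end of SIM2. The grey area is the gene with 2 kb on each side, faint bars are peaks outside it, and printed numbers are fold enrichments. At SIM1 the strongest peak of every list spans the start of the gene, at OTP the RNF2 peaks cover the whole gene, and at SIM2 RING1 of set B meets neither gene end.

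SIM1 carried its strongest peaks over its start, with the rest of the gene mostly outside any peak. The RING1 peak of set A had a fold enrichment of 13.6, ranked 4 of 12891, was 28.0 kb wide, and reached from 6.53 kb upstream of the start to 21.5 kb into the gene. The RING1 peak of set B had 5.91, ranked 11 of 659, was 15.9 kb wide and reached from 4.65 kb upstream to 11.3 kb inside. It was the second widest peak of its list. RNF2 at SIM1 in set A had a fold enrichment of 17.5, ranked 19 of 16263, over 32.9 kb from 8.75 kb upstream to 24.1 kb inside.

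In set B the SIM1 start lay under the RNF2 peak with the highest fold enrichment of all 5901, at 12.8 over 18.2 kb. Further into SIM1, RNF2 in set B was called as separate weaker peaks, of 4.41 over 5.75 kb (rank 1006) and 3.33 over 358 bp (rank 5013). Set A had 1 weaker RNF2 peak beyond the main one, of 3.51 over 1.38 kb (rank 12638). RING1 was called as 1 peak in each set. The stretch under peaks of all 4 lists ran without a break for 15.9 kb (100453658 to 100469572) and was the whole RING1 peak of set B.

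OTP was enclosed by peaks. In set A the RING1 peak at OTP had the highest fold enrichment of its list, 14.2 over 23.9 kb, and the RNF2 peak ranked 2 of 16263, at 20.2 over 28.5 kb. The RNF2 peak of set A reached 12.1 kb upstream of the start and 6.41 kb past the other end of the gene. In set B the RNF2 peak had 8.53, ranked 32 of 5901, was 21.1 kb wide and again contained both ends. All 10002 bp of the OTP gene thus lay under RING1 of set A and under RNF2 of both sets.

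RING1 in set B was called in 3 pieces at OTP. The strongest piece, at 6.07 and rank 4 of 659, covered the start over 6.97 kb. The others lay inside the gene, at 5.28 over 4.42 kb (rank 77) and 4.21 over 805 bp (rank 493). Together they covered 62.7% of the gene. By the less favourable of its 4 rank shares, 0.607% of the RING1 list of set B, OTP was the second of the 304 genes with peaks in all 4 lists. Its strongest peak was among the top 1% of every list, as at 3 of all 20037 genes (0.015%), the others being PRDM6 and IRX5. That share is bounded by the short RING1 list of set B, whose 659 peaks met 317 genes. OTP was chosen with these peaks known, so the share is a description only.

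SIM2, on chromosome 21 (36699115 to 36749917), spans 50.8 kb, and its peaks ranked lower than those of SIM1 and OTP in 4 of 4 lists. Its strongest RING1 peak in set A had a fold enrichment of 9.79 (rank 89) over 23.3 kb, and its strongest RNF2 peak had 14.9 (rank 57) over 29.9 kb. Both contained the lower-coordinate end of the gene and reached 9.65 kb and 11.0 kb below it. RNF2 in set B had 5.76 (rank 261 of 5901) over 24.7 kb around the same end. By width that peak ranked 25 of 5901. The non-coding RNA gene LOC105369308 (36632681 to 36698991) ends just below SIM2, and another, LOC107985492 (36700516 to 36709131), lies inside it. The main SIM2 peaks given above overlap both, so they cannot be assigned to SIM2 alone.

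RING1 in set B at SIM2 was weak and broken up. The 2 peaks in the window had fold enrichments of 4.51 over 2298 bp (rank 317 of 659) and 4.27 over 1678 bp (rank 459), near and below the list's median of 4.49. They lay 5997 to 12650 bp inside the gene from its lower end, and neither gene end was covered. A further RING1 peak of set B, of 4.49 over 3504 bp (36692655 to 36696158), lay 0.957 kb outside the 2 kb limit and so was not counted. That peak lies within LOC105369308, and the stronger of the 2 counted peaks lies within LOC107985492. The stretches under all 4 lists added up to 3976 bp at SIM2, against 15915 bp at SIM1 and 12187 bp at OTP.

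SIM2 also had peaks at its higher-coordinate end, where the annotation places the end of HLCS, the gene of holocarboxylase synthetase, across it. RING1 there had 5.04 over 3.93 kb in set A, and RNF2 had 5.75 over 4.72 kb in set A and 3.98 over 544 bp in set B. HLCS overlaps SIM2, so these peaks belong to either gene. The sources used here gave no strand for SIM2, so its lower-coordinate end is not named here as its start or its end. At SIM1, on the minus strand, the lower-coordinate end is the end of the gene, and no peak of any list met it.

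**Figure D2:**
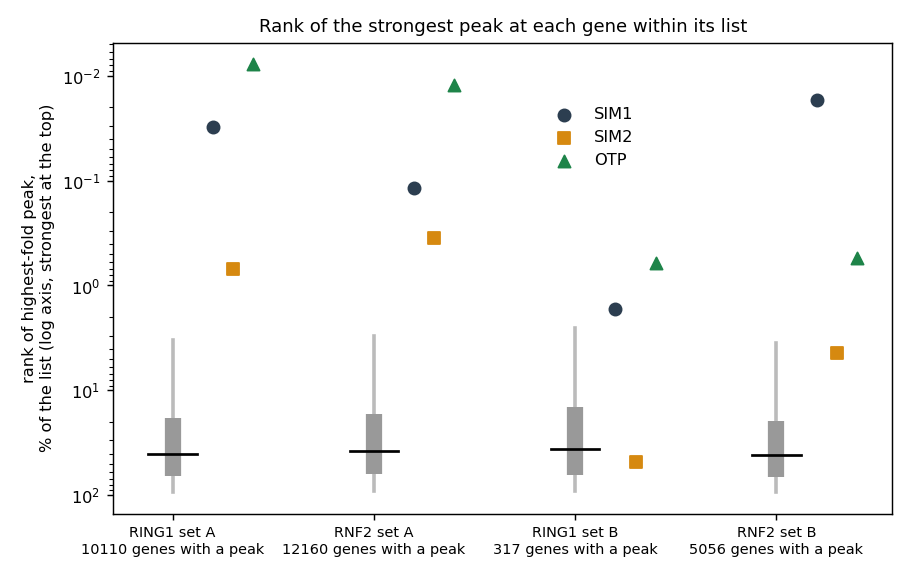
Rank of the highest-fold peak at each gene, as a percentage of its list on a reversed log axis, for SIM1, SIM2 and OTP. Grey shows all genes with a peak in that list (thick bar, quartiles, thin bar, 5th to 95th percentile, black line, median). SIM1 and OTP lie above the grey range in every list, and SIM2 falls to 48.1% in RING1 set B.

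The order of the genes was not the same in every list. OTP ranked above SIM1 in 3 lists, RING1 of both sets and RNF2 of set A, and SIM1 above OTP in RNF2 of set B. The median gene with a peak stood at 40.0%, 37.8%, 36.4% and 41.1% of the list in RING1 A, RNF2 A, RING1 B and RNF2 B. As shares of the lists, SIM1 stood at 0.0310%, 0.117%, 1.67% and 0.0169% in RING1 A, RNF2 A, RING1 B and RNF2 B. SIM2 stood at 0.690%, 0.350%, 48.1% and 4.42% in the same lists, below the median gene for RING1 of set B. By the less favourable of the 4 shares, SIM1 was 10th and SIM2 193rd of the 304 genes in all 4 lists, whose median was 35.4%.

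**Figure D3:**
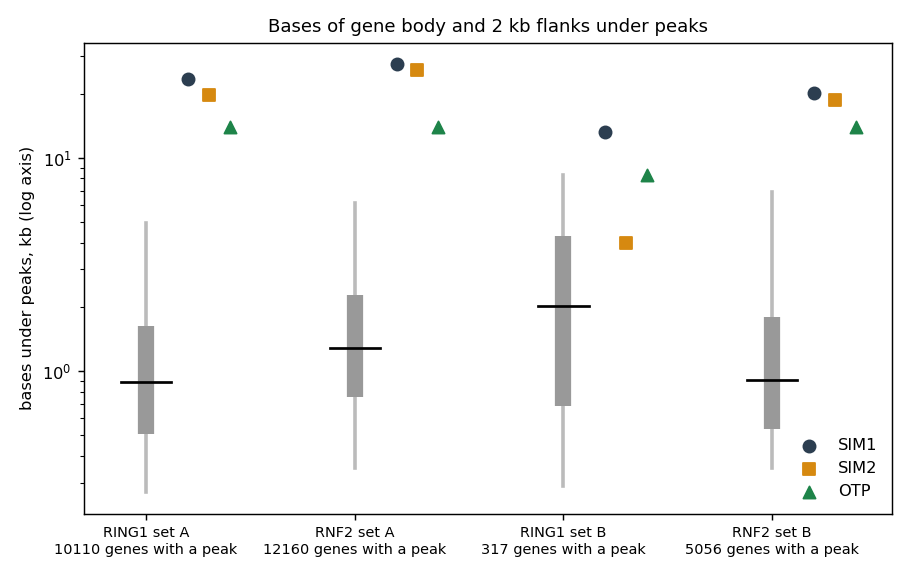
Bases under peaks within each gene and 2 kb beyond, in kb on a log axis, with the same grey summary of all genes that have a peak. SIM1 and SIM2 exceed 18 kb in both RNF2 lists, and the OTP value stops at 14002 bp because its whole window is covered.

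Covered length gave another order, since OTP is short. RING1 covered 23.5 kb of the SIM1 window in set A and 13.3 kb in set B, and RNF2 covered 27490 bp and 20029 bp. At SIM2, RING1 covered 19.6 kb and 3.98 kb, and RNF2 25.9 kb and 18.6 kb. At OTP the whole window of 14002 bp was covered in 3 lists and 8.27 kb by RING1 of set B. As shares of the window, RNF2 covered 32.8% and 23.9% at SIM1, 47.2% and 33.9% at SIM2, and 100% in each set at OTP. The median gene with a peak had 0.889 kb under RING1 and 1.29 kb under RNF2 in set A, and 2.02 kb and 0.906 kb in set B. A long gene can hold more covered bases, so these lengths do not rank the genes by occupancy.

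RING1 peaks were nested in RNF2 peaks at these genes. In set A, 100% of the RING1 bases at SIM1 and OTP and 98.9% at SIM2 lay under RNF2, and in set B 100% did at all 3 genes. The reverse shares in set A were 81.9% at SIM1, 77.2% at SIM2 and 83.9% at OTP. In set B RING1 lay under 65.4% of the RNF2 bases at SIM1 and 57.6% at OTP, and under 15.8% at SIM2. All set B bases, of either protein, lay under the set A peaks of the same protein. These shares were not computed over all peaks, so nesting is not shown to be particular to these genes. The RNF2 lists also cover more bases than the RING1 lists, 28.2 Mb against 17.4 Mb in set A and 10.7 Mb against 1.36 Mb in set B.

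Peaks in the surroundings were counted, with no average over other genes to set beside them. Within 100 kb beyond the window, OTP had no further peak in any list. SIM1 had 3 in RNF2 of set A, the nearest 9.02 kb from the window at a fold enrichment of 3.27 (rank 14998), and none in the other lists. SIM2 had 1 to 2 in each list, the strongest an RNF2 peak of set A at 5.82 (rank 1767), 65.6 kb above the window.

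Taking the 3 nearest protein-coding genes on each side of each gene gave 18 neighbours. Peaks in all 4 lists, found at 1.52% of all protein-coding genes, were present at 1 of them. This was PRDM13, a zinc finger gene of spinal and cerebellar interneurons 769 kb below SIM1, with RING1 at 9.58 and 4.96 and RNF2 at 15.6 and 6.42 in sets A and B. Between them, MCHR2, a receptor gene for melanin-concentrating hormone, had 1 RNF2 peak of set A (3.64). ASCC3, 43.3 kb above SIM1, had RING1 at 3.499 and RNF2 at 3.85 in set A and none in set B. Beside SIM2, CLDN14 had no peak in any list and HLCS had peaks in 3, some of them shared with SIM2. Beside OTP, WDR41 met the OTP peak of RNF2 in set A through its 2 kb margin, and TBCA had 5.32 and 5.72 in set A and no peak in set B.

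The dimer partners of the SIM proteins carried weaker peaks than the SIM genes. ARNT2 had RING1 at 3.39 and RNF2 at 3.65 in set A, at 89.9% and 69.5% of the lists, and no peak in set B. ARNT had 1 RNF2 peak of set A, at 4.19. POU3F2, which encodes a POU factor downstream of SIM1 in the paraventricular nucleus, had RING1 at 5.50 and RNF2 at 5.92 in set A and RNF2 at 5.46 in set B (5.68% of the list). Its relative POU3F1 had 6.13, 8.15 and 4.23 in the same lists. No partner or POU gene of these 4 had RING1 in set B, which was found at 1.58% of all protein-coding genes.

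**Figure D4:**
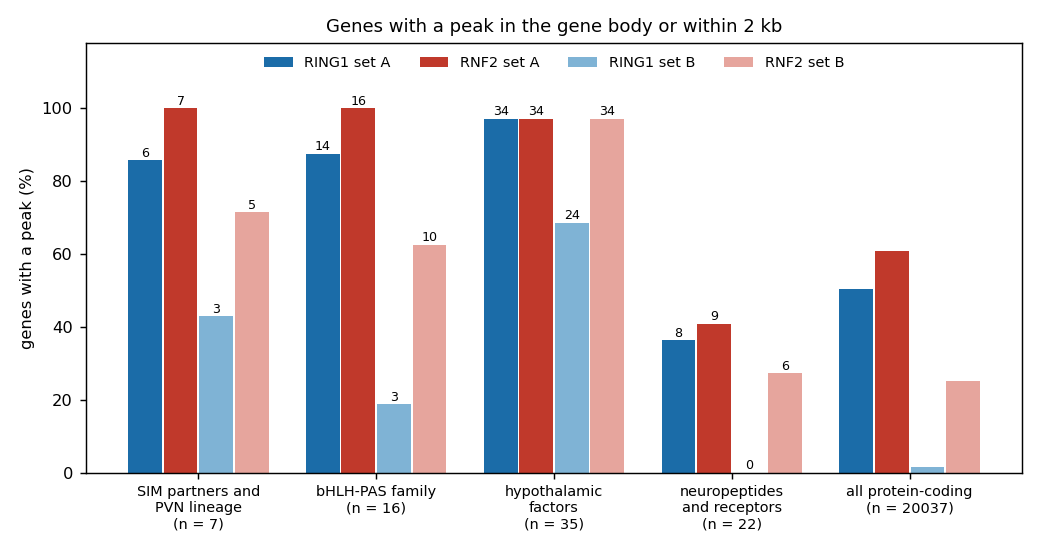
Percentage of genes with a peak in the gene body or within 2 kb, for 4 gene lists and for all protein-coding genes, with counts above the bars. SIM1, SIM2 and OTP are in the first list and the SIM genes also in the second. RING1 of set B was at 24 of 35 hypothalamic factor genes and at 0 of 22 neuropeptide and receptor genes.

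Among the 16 genes of the bHLH-PAS family, SIM1 had the highest-ranked peak in each of the 4 lists. SIM2 came next in 3 of them, and in RNF2 of set B EPAS1 (3.85% of the list) lay above SIM2. Without the SIM genes, 12 of 14 had RING1 (85.7%) and 14 had RNF2 (100%) in set A, beside 50.5% and 60.7% of all genes. In set B 1 had RING1 (7.14%) and 8 had RNF2 (57.1%), beside 1.58% and 25.2% of all genes. The median rank of those with RNF2 in set B was at 14.9% of the list. EPAS1, a hypoxia-inducible factor gene, had RNF2 at 7.86 and 5.89 in sets A and B, and BMAL1, a circadian clock gene, had 7.89 and 5.54. The 1 family member beside the SIM genes with RING1 in set B was BMAL2, named after its values were seen, at 3.96 (92.1% of the list).

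Genes of other hypothalamic transcription factors were counted in the same way, 35 genes without SIM1, SIM2 or OTP. In set A 34 had RING1 and 34 had RNF2 (97.1% each), where 50.5% and 60.7% of all genes did. In set B 24 had RING1 (68.6%) and 34 had RNF2 (97.1%), where 1.58% and 25.2% of all genes did. The difference from all genes was not tested. Their median ranks were at 1.57% and 0.784% of the RING1 and RNF2 lists of set A, and at 36.3% and 2.29% in set B. FOXD1, a forkhead gene, had RNF2 at 17.1 and 10.9 in sets A and B, LHX8 17.8 and 9.27, and HMX2 and HMX3, neighbours under shared RNF2 peaks, 16.9 and 7.80. LHX1 had no peak in any list and was named after its values were seen.

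Of 22 hypothalamic neuropeptide and receptor genes, 12 had no peak in any list, which held for 35.3% of all genes. In set A RING1 was found at 8 of them (36.4%) and RNF2 at 9 (40.9%), beside 50.5% and 60.7% of all genes. In set B RING1 was found at 0 and RNF2 at 6 (27.3%), shares near the 1.58% and 25.2% of all genes. No difference from other genes was tested. A longer gene offers more bases for a peak to meet, and none of the 4 gene lists was matched for gene length. The leading members by RNF2 were LEPR, the leptin receptor gene, at 4.67 and 3.77, AGRP at 4.55 and 3.76, CRH at 4.02 and 4.66, and NPY at 5.62 and 3.51. OXT and AVP, the oxytocin and vasopressin genes, had no peak in any list, and TRH had RING1 at 3.77 and RNF2 at 4.13 in set A alone. These last 3 genes were named after their values were seen.

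**Figure D5:**
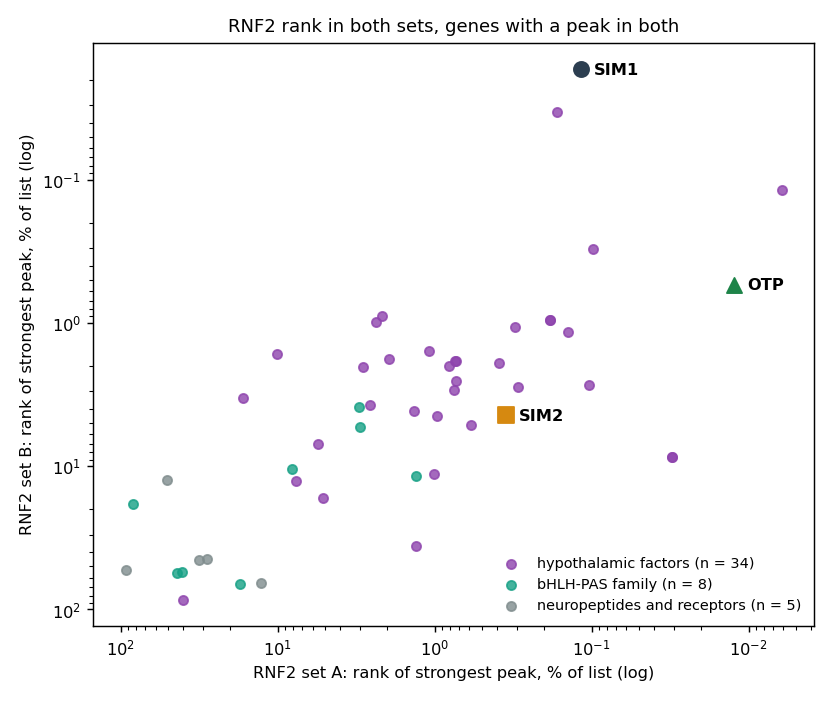
Rank of the strongest RNF2 peak at each gene in set A (horizontal) and set B (vertical), as a percentage of the list on reversed log axes, for genes with RNF2 in both sets. SIM1 lies at the top edge, OTP towards the right, and SIM2 among the hypothalamic factor genes.

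Genes most like each of the 3 were found by the mean absolute difference of rank share over the 4 lists, among 303 other genes with peaks in all of them. Those nearest to SIM1 included FOXD1, TBX20, IRX5 and PITX1, at 0.175 to 0.388 percentage points. Those nearest to OTP included PRDM6, TBX20, IRX5 and NKX2-3, at 0.257 to 0.334 points. For SIM2 they were NR2F2, C10orf143, DLX5, GFI1 and C1orf53, at 0.936 to 1.38 points. C1orf53 had the same fold enrichments as LHX9, also on chromosome 1, in RING1 A (9.86), RNF2 A (15.3) and RNF2 B (6.34). Its values may thus come from peaks shared with LHX9. Because they were picked by rank share, the genes nearest SIM2 had high ranks in 3 lists and a RING1 rank of set B between 45.8% and 51.9%. TBX20 and IRX5 were near to both SIM1 and OTP.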

How the data were processed

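CUT&RUN peak lists were used for the wild-type cells, 1 per library for 2 RING1 and 2 RNF2 libraries. Per the submitters' processing notes, the tools included MACS2 2.2.9.1, deepTools 3.5.2, Picard 2.8.1, SAMtools 1.9, bedtools 2.30.0 and BWA 0.7.17, and the build was hg38. Neither their options nor the control behind the peaks is stated. Peaks were read as called in each library, since every list's name gives its antibody and set. The deposited fold enrichment is a ratio of signal over background. The deposited −log10 q describes each peak's significance, and the other score columns were left out. The weakest peaks had a q of 0.0952 (RING1 A), 0.0982 (RNF2 A), 0.0831 (RING1 B) and 0.0984 (RNF2 B). All counts and shares of genes with a peak include such weak peaks. The consolidated file deposited by the authors holds coordinates only.

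A peak met a gene where they shared at least 1 bp, and contigs other than chromosomes 1 to 22, X and Y were left out. Gene positions and promoters are those of RefSeq on GRCh38.p14. Where several peaks met a gene, the one with the highest fold enrichment was ranked. The genes and the 4 gene lists were chosen with earlier results of these data known. Named genes were the 3 genes, their 3 neighbours on each side, the first gene list, up to 4 genes of each other list by the less favourable RNF2 rank share, and the 5 genes most like each. Of the genes so named, 1 is not reported here. No test was made. Gene overlaps were tested on simulated data, where all 200 planted genes of 20037 were found and 0 others. Alternatives were other windows, overlaps, q limits, list lengths, ranking measures and leaving out each set. Python 3.11.15, numpy 2.4.6, pandas 2.3.3 and matplotlib 3.10.9 were used.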

Additional observations from a re-analysis of the deposited data

How the results depend on the processing

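No paired analysis was possible because no result comes from a test and the set numbers are tied to no replicate. Counts of genes with a peak stayed within 1.5 times under 27 of 28 alternatives. A fall from 3 genes to 2 also meets that limit, so genes lost are named below. At a −log10 q of at least 5, 1 of 3 genes, OTP, kept RING1 in set B, where SIM1 then had 0 kb covered by RING1 and 13.9 kb by RNF2, and OTP 3.05 kb by RING1. With 2 kb around gene ends only, SIM2 lost RING1 of set B, so it has no rank among peaks at gene ends there. With at least 50% of the peak required inside the window, 2 of 3 genes kept RNF2 in set A, and OTP lost it because that peak (28489 bp) is over 2 times as wide as the window (14002 bp). With either set left out, all 3 genes had a peak in both remaining lists (3 and 3). Ranked by width, SIM1 stood at 0.221% (RNF2 A), 0.303% (RING1 B) and 1.17% (RNF2 B), SIM2 at 0.424% (RNF2 B) and OTP at 3.34% (RING1 B). Ranking by −log10 q, the widest peak, all contigs and gene-end peaks moved no share by more than the SD of its values in sets A and B. That SD compares lists of different length. It is wide where the sets differ, as for RING1 at SIM2 (0.690% and 48.1%), so it could hardly show a move there. At OTP, RING1 of set A covered 19.7 kb with 5 kb windows, RNF2 20.002 kb and 17.4 kb in sets A and B, and RNF2 10.002 kb in each with the gene alone. The sources used here give no depth, so its effect on which peaks were called was not tested.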

Other observations

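The consolidated file holds 4255 regions, all of which met an RNF2 peak of set A and 4239 an RNF2 peak of set B, while 3849 met RING1 of set A and 306 RING1 of set B. SIM1 had 1 region of 32865 bp, OTP 1 of 28490 bp and SIM2 2, of 29864 bp and 5032 bp, and they ranked 37, 52, 46 and 698 by width. The SIM1 and OTP regions equal the RNF2 peaks of set A (32864 bp and 28489 bp) with 1 base added at the lower end. The shorter SIM2 region spans the RING1 and RNF2 peaks of set A at the HLCS end. No region of the file marks the weaker RNF2 peak of set A inside SIM1. The file rests on the same peaks and adds no independent measurement.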
